A study of Mus musculus with 29 samples.

Results

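The circadian clock genes Arntl (Bmal1), Clock, Per1, Per2, Per3, Cry1, Cry2, Nr1d1, Nr1d2 and Dbp were followed across the brain RNA fractions of astrocyte and microglia NuTRAP mice. The members were the rows of the gene table with these 10 symbols, and all 10 were found among its 36172 rows. Their counts were at least 107 in each of the 29 libraries, so all 10 passed the filter on low counts in every comparison. NuTRAP mice carry a Cre-dependent allele that encodes an EGFP-tagged ribosomal protein, L10a, and translating ribosome affinity purification (TRAP) uses anti-GFP antibody on beads to pull down these ribosomes with their RNA. The Aldh1l1-NuTRAP mice were Aldh1l1-Cre/ERT2+; NuTRAP+, with Cre driven in astrocytes, and the Cx3cr1-NuTRAP mice were Cx3cr1-Cre/ERT2+; NuTRAP+, with Cre driven in microglia. Both lines, males and females, received tamoxifen on 5 consecutive days at an age of about 3 months. The interval between tamoxifen and collection of brain tissue that the study describes was longer for the Cx3cr1 line than for the Aldh1l1 line. No group lacks Cre, the NuTRAP allele or tamoxifen. The negative fraction is the RNA left unbound, the positive fraction is the RNA on the beads, input is the cleared homogenate, and whole tissue is conventionally isolated brain RNA. The negative and positive fractions came from 3 Aldh1l1-NuTRAP mice (numbers 290, 293 and 294). From 6 Cx3cr1-NuTRAP mice (155, 192, 194, 209, 210 and 277) there were input, negative and positive fractions, and from all of these but mouse 155 whole tissue as well. Input and whole tissue of the Aldh1l1 line were not analysed here.

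In the molecular clock of mammalian cells, CLOCK and BMAL1 (the product of Arntl) form a transcription factor that binds E-box sequences and activates the Per and Cry genes, whose proteins in turn repress it. The same activator drives the nuclear receptors REV-ERB alpha and beta (Nr1d1 and Nr1d2), which repress Arntl through ROR elements, and the output factor DBP, which binds D-box sequences. Transcripts of this loop rise and fall over the day, with different phases for Arntl and for the E-box targets. The time of day at which each mouse was killed is given neither in the labels nor in the methods, so the fractions were compared within a mouse wherever the design allowed it.

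Stretches upstream of 4 members are shown because Dbp, Nr1d1 and Cry1 had the highest ratios of positive to negative fraction in the Aldh1l1 line and because Per3 had the only D-box matches among the members. They are RefSeq sequences on the GRCm38.p6 build, printed 5′ to 3′ on the strand of the gene, and end where the first annotated exon of the gene begins. Capitals mark the canonical E-box, which is CACGTG on both strands, or the D-box TTATGTAA. In the Nr1d1 and Cry1 stretches they also mark a variant of the E-box that reads AACGTG on the printed strand. The Dbp stretch is chr7:45704997-45705087 (plus strand), the Nr1d1 stretch chr11:98775378-98775627 (minus), the Cry1 stretch chr10:85185065-85185304 (minus) and the Per3 stretch chr4:151044708-151044915 (minus).
Dbp: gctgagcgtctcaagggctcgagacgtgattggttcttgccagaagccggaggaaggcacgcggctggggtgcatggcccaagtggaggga
Nr1d1: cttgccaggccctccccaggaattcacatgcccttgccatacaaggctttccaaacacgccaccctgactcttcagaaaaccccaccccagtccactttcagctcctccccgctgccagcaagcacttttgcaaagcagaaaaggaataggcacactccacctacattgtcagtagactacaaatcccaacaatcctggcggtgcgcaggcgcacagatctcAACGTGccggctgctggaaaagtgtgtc
Cry1: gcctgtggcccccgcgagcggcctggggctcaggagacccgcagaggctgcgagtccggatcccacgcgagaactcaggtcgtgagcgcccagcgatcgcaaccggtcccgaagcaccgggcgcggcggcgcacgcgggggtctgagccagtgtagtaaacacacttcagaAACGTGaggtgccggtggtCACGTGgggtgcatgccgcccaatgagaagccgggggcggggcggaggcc
Per3: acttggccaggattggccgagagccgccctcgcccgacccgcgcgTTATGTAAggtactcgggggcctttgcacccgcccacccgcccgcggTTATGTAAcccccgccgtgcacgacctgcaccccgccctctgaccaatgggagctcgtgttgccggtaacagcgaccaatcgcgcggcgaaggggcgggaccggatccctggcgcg
Windows from 250 bases before to 50 bases after an annotated start were held for 9 of the 10 members, in 13 windows, and 6 of these members had at least 1 match on either strand. The E-box was found in Cry1 (first base 60 bases before the start) and in Per1 (166 bases before it). The variant was found in Nr1d1 (28 bases before the start), Cry1 (79) and Cry2 (166). Per3 held 2 D-boxes, 205 and 158 bases before the start. Arntl held the ROR element, 27 bases after the start, in 1 of its 2 windows. Of all 32851 windows, 7.15% held the E-box, 4.68% the variant, 1.06% a D-box (TTATGTAA or TTACGTAA) and 0.384% the ROR element. For Clock, Nr1d2 and Dbp none of these letters occurred in the windows searched, and no window was held for Per2.

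Total counts were 4260949 to 26857866, the lowest being whole tissue from mouse 210, and the 28 other libraries held at least 8782235. The fractions were checked against cell type markers, of which none was at 0. The 10 astrocyte markers summed to 18306 to 27521 CPM (counts scaled to a library total of 1000000) in the Aldh1l1 positive fractions and to 3505 to 4831 CPM in the negative ones. The 10 microglia markers summed to 3384 to 8139 CPM in the Cx3cr1 positive fractions and to 397 to 477 CPM in the negative ones, and in the Aldh1l1 positive fractions to 68.0 to 146 CPM. In the Aldh1l1 positive fractions the 10 neuron markers summed to 1980 to 2400 CPM, against 8210 to 9015 CPM in the negative ones. In the Cx3cr1 positive fractions they summed to 6204 to 9392 CPM, against 8733 to 9316 CPM in the negative ones (median log2 fold change -0.12). The 8 oligodendrocyte markers summed to 822 to 962 CPM in the Aldh1l1 positive against 3872 to 4171 CPM in the negative fractions. The 3 choroid plexus markers, like those of astrocytes, were higher with the Aldh1l1 pulldown, at 2803 to 3327 CPM against 464 to 611 CPM. In these bulk fractions, fewer cells of a type and less RNA per cell cannot be told apart.

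In the Aldh1l1 line, the output factor Dbp, the nuclear receptors Nr1d1 and Nr1d2 and the repressor Cry1 were higher in the positive than in the negative fraction, and the activator Clock and the repressor Per2 were lower. Fold changes below are log2 values from the quasi-likelihood test of edgeR with trimmed mean (TMM) scaling and the mouse as a block, with their standard error and the Benjamini-Hochberg adjusted p over all genes tested. At an adjusted p under 0.05, 4 members were higher and 2 lower among 10 tested. Of all 13319 genes tested, 70.8% were called (37.0% higher and 33.8% lower), so the share of members called was not above that of all genes. The median log2 fold change was 0.26 over the members and 0.03 over all genes tested. CPM ranges of the fractions did not overlap for 4 members, Clock, Cry1, Nr1d1 and Dbp, against 63.0% of all genes. In the same comparison 10 of 10 astrocyte markers (median log2 fold change 3.05) and 3 of 3 choroid plexus markers (2.59) were higher. Lower were 7 of 8 oligodendrocyte markers (-2.91), 10 of 10 of neurons (-1.58) and 10 of 10 of microglia (-2.38). The part of these markers in the result was not tested.

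Among the output and nuclear receptor genes, Dbp (Entrez 13170, mm10 chromosome 7, 45705247 to 45710203) had 137, 84.3 and 83.1 CPM in the negative fractions of mice 290, 293 and 294 and 456, 323 and 328 CPM in their positive fractions. Every positive fraction lay above every negative one, with mouse 290 the highest in both. The log2 fold change of Dbp was 2.23 (SE 0.11, adjusted p = 3.34e-08 from edgeR), which placed it at percentile 94.7 of all genes tested. Nr1d1 (Entrez 217166, chromosome 11, 98767935 to 98775242), which represses Arntl, had 96.9, 125 and 138 CPM in the negative and 169, 258 and 223 CPM in the positive fractions. Here too the fractions did not overlap, and the log2 fold change was 1.19 (SE 0.11, adjusted p = 3.69e-06 from edgeR). Exons of Dbp and Nr1d1 share 539 and 263 bases with Sphk2 and Thra on the opposite strand, and the authors aligned the reads with their direction kept. Nr1d2 (Entrez 353187, chromosome 14, 18204056 to 18239106), the second REV-ERB receptor, had 139, 128 and 148 CPM in the negative and 131, 129 and 160.2 CPM in the positive fractions. Its ranges overlapped in plain CPM. After TMM scaling its ratio was higher in 3 of 3 mice, with a log2 fold change of 0.36 (SE 0.10, adjusted p = 0.00871 from edgeR), and the call was lost without the block (adjusted p = 0.0823), without mouse 294 (0.0904) and with total counts only (0.02, adjusted p = 0.894).

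Among the repressors, Cry1 (Entrez 12952, chromosome 10, 85131700 to 85185054) had 23.0, 22.6 and 31.1 CPM in the negative and 31.9, 42.0 and 52.4 CPM in the positive fractions. The ranges were next to each other without overlap, and each mouse was higher in its positive fraction. Its log2 fold change was 1.07 (SE 0.13, adjusted p = 2.46e-05 from edgeR). Cry2 (Entrez 12953, chromosome 2, 92403647 to 92434069) had 151, 168 and 173 CPM in the negative and 126, 174 and 158 CPM in the positive fractions, with overlapping ranges. Its log2 fold change of 0.23 (SE 0.11) did not pass the test (adjusted p = 0.0756 from edgeR). Cry2 was called in 3 of 10 alternatives (lowest adjusted p = 0.0138), and the difference between the cryptochrome genes was not tested. Per2 (Entrez 18627, chromosome 1, 91415982 to 91459328) had 16.6, 43.4 and 45.6 CPM in the negative and 10.6, 19.9 and 21.0 CPM in the positive fractions. It was lower in the positive fraction of each mouse while the ranges overlapped, since mouse 290 was low in both. The log2 fold change of Per2 was -0.65 (SE 0.14, adjusted p = 0.00199 from edgeR, 0.186 without the block). Per1 (Entrez 18626, chromosome 11, 69098956 to 69109957) had 92.8, 161 and 153 CPM in the negative and 71.1, 129 and 121 CPM in the positive fractions. Per3 (Entrez 18628, chromosome 4, 151003655 to 151044622), the third Period gene, had 36.6, 42.9 and 49.0 CPM in the negative and 23.8, 34.6 and 42.0 CPM in the positive fractions. Neither gene passed the test, with log2 fold changes of -0.00 for Per1 (adjusted p = 0.983 from edgeR) and -0.03 for Per3 (adjusted p = 0.859). With total counts only, both were called lower, at -0.35 for Per1 (adjusted p = 0.00926) and -0.37 for Per3 (adjusted p = 0.0180).

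Of the activator pair, Clock (Entrez 12753, chromosome 5, 76212177 to 76304548) had 44.2, 60.8 and 71.4 CPM in the negative and 15.5, 33.9 and 33.3 CPM in the positive fractions. Every positive fraction lay below every negative one. The log2 fold change of Clock was -0.78 (SE 0.14, adjusted p = 0.000459 from edgeR, 0.0788 without the block). Arntl (Entrez 11865, chromosome 7, 113207465 to 113314126), which encodes its partner BMAL1, had 24.8, 35.4 and 36.2 CPM in the negative and 24.8, 32.2 and 35.2 CPM in the positive fractions. The CPM values nearly coincided within each mouse, and the log2 fold change of 0.28 (SE 0.12) did not pass the test (adjusted p = 0.0520 from edgeR), with a call in 2 of 10 alternatives (lowest adjusted p = 0.0161). These fold changes depend on the scaling. TMM factors of these 6 libraries ran from 0.867 to 1.14 in the fit, and with all 29 libraries scaled together they were 0.731 to 0.779 in the Aldh1l1 positive fractions and 0.968 to 1.02 in the negative ones. With total counts only the median log2 fold change of all genes moved from 0.03 to -0.32. On that scale Dbp (1.88), Nr1d1 (0.84) and Cry1 (0.72) were still called higher and the sign of Arntl (-0.06) and of Cry2 (-0.11) turned, and 34.7% of all genes called were higher instead of 52.2%.

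**Figure D1:**
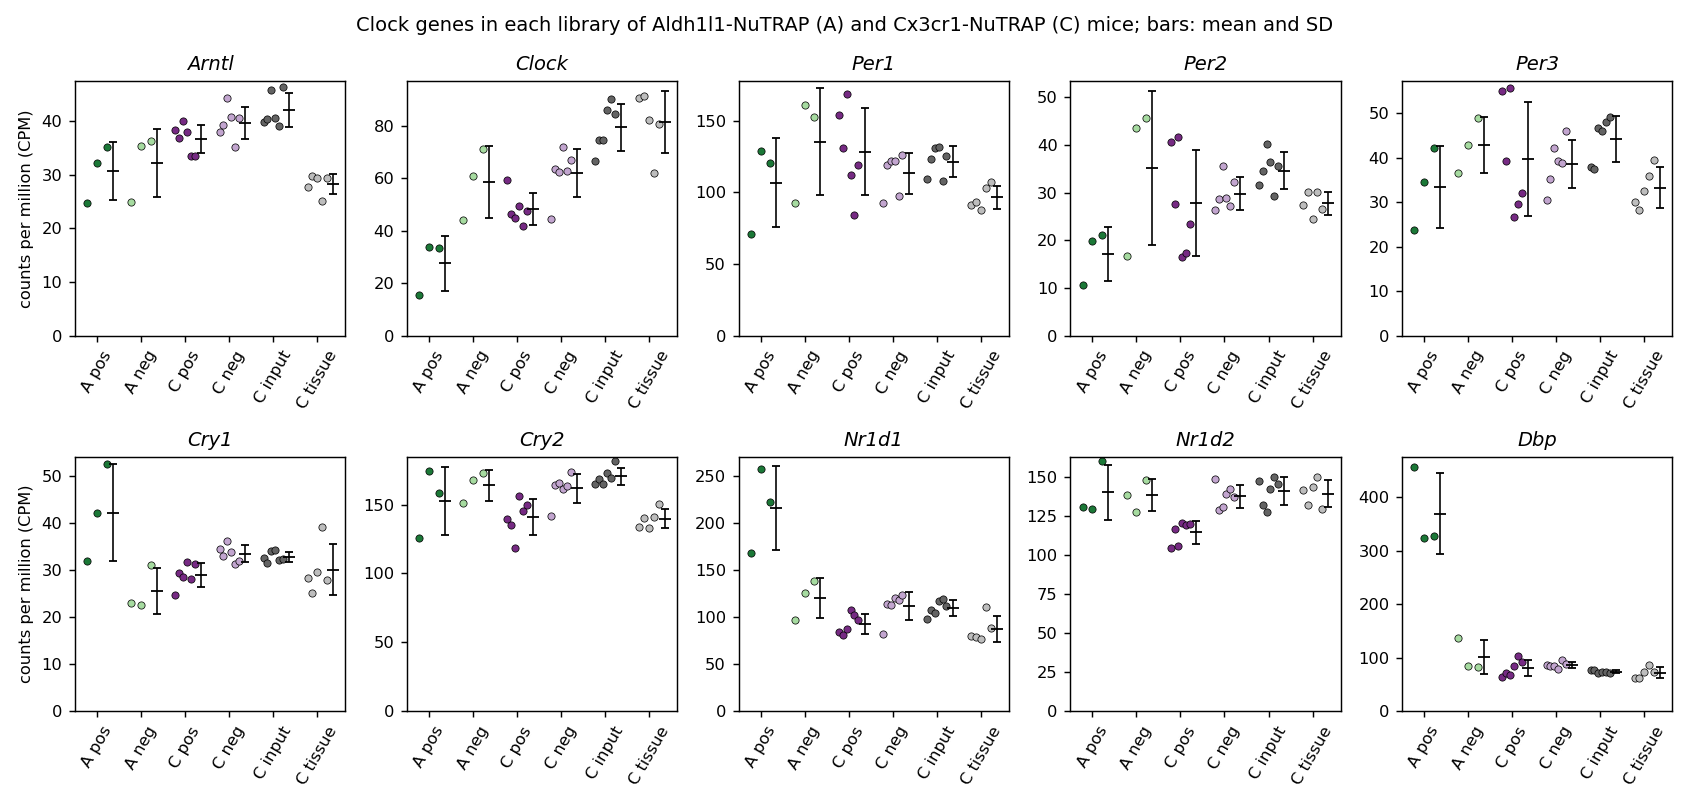
Plain CPM of each of the 10 clock genes (y axis, from 0) in every library of the 6 groups (x axis), with a tick at the mean and bars of 1 SD beside the points. Dbp at 323 to 456 CPM and Nr1d1 at 169 to 258 CPM in the Aldh1l1 positive fractions stand above all other groups, and Clock at 15.5 to 33.9 CPM in the same fractions lies below them.

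In the Cx3cr1 line, 0 of the 10 members differed between positive and negative fractions at an adjusted p under 0.05 in edgeR, where 17.3% of all 13776 genes were called (9.28% higher and 7.98% lower). At an unadjusted p under 0.05 there were 3 members and 33.6% of all genes, and DESeq2 called 1 member, Nr1d2, and 23.2% of all genes. Other fits with edgeR also called members: without the block (24.3% of all genes), with all groups in one fit (30.6%) and with total counts only (18.7%). The median log2 fold change was -0.17 over the members and -0.02 over all genes. CPM ranges were apart for Nr1d2 alone among the 10, against 13.1% of all genes. Here 10 of 10 microglia markers were higher (median log2 fold change 3.56), and 7 of 8 of oligodendrocytes (-0.80) and 6 of 10 of astrocytes (-0.39) lower. Of the neuron markers 0 of 10 were higher and 0 lower (-0.12), and of the endothelial markers 2 of 7 were higher and 0 lower (0.30).

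Nr1d2 had 104, 118 and 120.3 CPM (lowest, median and highest of 6 mice) in the Cx3cr1 positive and 129, 138 and 148 CPM in the negative fractions. It was lower in the positive fraction of 6 of 6 mice, with a log2 fold change of -0.24 (SE 0.07, adjusted p = 0.0539 from edgeR, and 0.00516 to 0.135 over 13 alternatives, of which 5 gave a call). Nr1d1 had 81.1, 92.4 and 108 CPM in the positive and 82.5, 117 and 123 CPM in the negative fractions. The lowest negative value was that of mouse 155, the 5 other mice were at 113 CPM or above, and the log2 fold change was -0.23 (SE 0.08, adjusted p = 0.0902 from edgeR). Clock had 42.0, 46.9 and 59.5 CPM in the positive and 44.7, 63.2 and 72.2 CPM in the negative fractions. Mouse 155 went against the other mice, with a log2 ratio of positive to negative of 0.43 against -0.54 to -0.37, and the log2 fold change of Clock was -0.33 (SE 0.14, adjusted p = 0.123 from edgeR). Without mouse 155, 3 members were called lower, Clock (-0.48, adjusted p = 0.000882), Nr1d1 (-0.29, adjusted p = 0.0122) and Nr1d2 (-0.19, adjusted p = 0.0335), where 4036 of 13904 genes were called, so the share of members was close to that of all genes. Leaving out any other single mouse gave 0 calls in edgeR.

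Cry1 (28.9 CPM, median of 6) and Cry2 (142 CPM) were below their negative fractions (33.4 and 164 CPM) in 6 of 6 mice, by log2 fold changes of -0.18 for each that did not pass the test (adjusted p = 0.165 and 0.160 from edgeR). Arntl had 33.5, 37.3 and 40.0 CPM in the positive and 35.1, 40.0 and 44.2 CPM in the negative fractions (log2 fold change -0.08, adjusted p = 0.466). Dbp had 63.5, 78.6 and 102 CPM in the positive and 79.7, 86.1 and 96.7 CPM in the negative fractions, a log2 fold change of -0.09 (SE 0.09, adjusted p = 0.532). For Dbp the mice were divided, with 3 higher and 3 lower.

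The 3 Period genes varied most between mice in the Cx3cr1 positive fractions. Per2 had 40.5, 27.5, 41.7, 16.4, 17.3 and 23.4 CPM in the positive fractions of mice 155, 192, 194, 209, 210 and 277. The log2 ratios to their own negative fractions were 0.65, 0.01, 0.33, -0.81, -0.61 and -0.43. Mice 155 and 194 were high in the positive fraction and mice 209, 210 and 277 low, while the negative fractions of all 6 lay between 26.3 and 35.5 CPM. Per3 had 54.9, 39.3, 55.6, 26.7, 29.5 and 32.1 CPM in the same order, with log2 ratios from -0.54 to 0.87. Per1 had 154, 131, 169, 112, 84.3 and 119 CPM, with log2 ratios from -0.17 to 0.76. For each of the 3 genes the ratio was above 0 in mice 155, 192 and 194 and below 0 in mice 209, 210 and 277. Their fold changes over the 6 mice did not pass the test, with log2 values of 0.18 for Per1 (SE 0.14, adjusted p = 0.387 from edgeR), -0.16 for Per2 (SE 0.19, adjusted p = 0.615) and 0.02 for Per3 (SE 0.19, adjusted p = 0.968). Dbp ran the other way, with positive fractions of 63.5, 71.9, 68.4, 85.3, 102 and 93.0 CPM and ratios below 0 in the 3 mice in which the Period genes were above it.

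**Figure D2:**
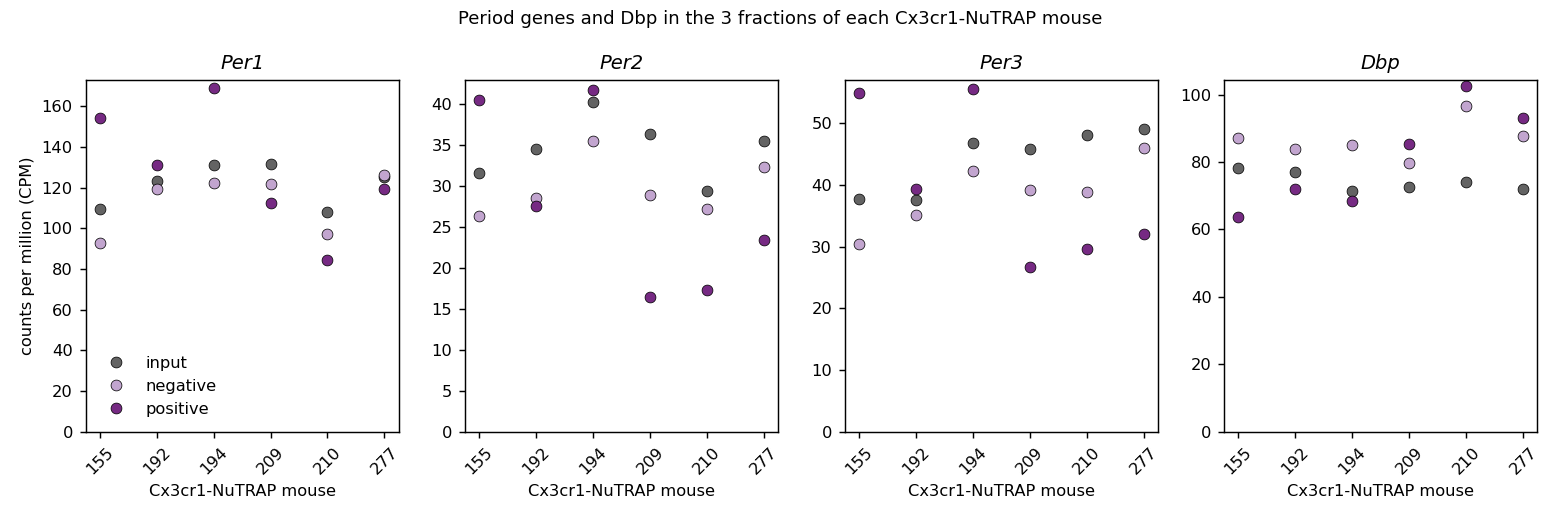
Plain CPM of Per1, Per2, Per3 and Dbp (y axis, from 0) for each of the 6 Cx3cr1-NuTRAP mice (x axis), with 1 point each for the input, negative and positive fractions. The positive fractions are the most widely spread, from 16.4 to 41.7 CPM for Per2, while the inputs of Per2 lay between 29.4 and 40.2 CPM.

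The SD of log2 CPM over the 6 Cx3cr1 positive fractions was 0.62 for Per2, 0.49 for Per3 and 0.39 for Per1, at percentiles 93.1, 87.2 and 79.2 of the 14109 genes compared, whose median SD was 0.23. In the inputs of the same mice the SDs were 0.17, 0.19 and 0.14, with a median of 0.13 over all genes. Nr1d2 was at the other end, with an SD of 0.06 in the positive fractions (percentile 1.56), and Dbp varied little in the inputs, with an SD of 0.04 (percentile 2.11). Marker sums also differed between these 6 libraries. In the order of the mice above, the neuron markers summed to 6875, 7413, 6204, 9392, 8944 and 8520 CPM and the astrocyte markers to 3957, 3901, 3273, 4823, 4996 and 4853 CPM, so that mice 155, 192 and 194 had the lowest sums of both. The microglia markers summed to 4608, 5291, 8139, 3384, 4062 and 4674 CPM, without such a split. The log2 level of each gene was also taken relative to its mean over these 6 libraries, with genes in 4 equal classes of exonic length. The median of the longest class minus that of the shortest was 0.27, -0.09, 0.19, -0.04, -0.23 and -0.09, also without this split between mice. Their part in the result was not tested.

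Against input, the activator Clock, the nuclear receptors Nr1d1 and Nr1d2 and the repressor Cry2 were lower in the Cx3cr1 positive fraction. In this comparison 4 of 10 members were called, 0 higher and 4 lower, where 42.9% of all 13838 genes were called (19.0% higher and 23.9% lower). The median log2 fold change was -0.21 over the members and -0.01 over all genes. CPM ranges were apart for 3 members, Clock, Cry2 and Nr1d2, against 25.3% of all genes. Markers of several other cell types were also lower here, 7 of 10 of astrocytes (median log2 fold change -0.42), 7 of 8 of oligodendrocytes (-0.72) and 3 of 3 of oligodendrocyte precursors (-0.93). Of the neuron markers only 2 of 10 were lower (-0.03), and of the endothelial markers 2 of 7 were higher and 0 lower (0.16). The part of these markers in the result was not tested.

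Clock had 66.6, 79.7 and 90.3 CPM in input (lowest, median and highest), above the 42.0 to 59.5 CPM of the positive fractions. The log2 fold change of Clock was -0.70 (SE 0.12, adjusted p = 0.00189 from edgeR), lower in 6 of 6 mice and called under each of 13 alternatives. Nr1d2 had 128, 144 and 150.4 CPM in input and a log2 fold change of -0.28 (SE 0.06, adjusted p = 0.00620), lower in 6 of 6 mice. Cry2 had 165, 169 and 182 CPM in input and a log2 fold change of -0.27 (SE 0.06, adjusted p = 0.00855). Nr1d1 had 97.8, 109.8 and 119.8 CPM in input and a log2 fold change of -0.23 (SE 0.06, adjusted p = 0.0150). The calls of Cry2 and Nr1d1 were lost without mouse 192 (adjusted p = 0.0567 and 0.110 from edgeR). The 6 other members did not pass the test. For Cry1 the log2 fold change was -0.17 (adjusted p = 0.0834 from edgeR) and for Arntl -0.18 (0.0914), while Per2 was at -0.38 (0.136), Per3 at -0.19 (0.455), Per1 at 0.06 (0.707) and Dbp at 0.12 (0.358). Without mouse 155, Per2 was called lower as well (-0.55, adjusted p = 0.0279).

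Whole tissue had been sequenced for 5 of the 6 mice. In the positive fraction, Arntl was higher than in whole tissue, with a log2 fold change of 0.35 (SE 0.09, adjusted p = 0.0176 from edgeR), and Clock (-0.83, SE 0.10, adjusted p = 0.000457) and Nr1d2 (-0.27, SE 0.08, adjusted p = 0.0228) were lower. The 3 calls among 10 members compare with 42.6% of all 13514 genes (19.9% higher and 22.7% lower), and these 3 members were also those whose ranges were apart, against 31.8% of genes. In whole tissue of mice 192, 194, 209, 210 and 277, Arntl had 27.6, 29.8, 29.4, 25.1 and 29.4 CPM and Clock 90.6, 91.5, 82.3, 62.2 and 80.9 CPM. The lowest value of both genes was that of mouse 210, which had the smallest library. Lower in this comparison were 8 of 8 oligodendrocyte markers (median log2 fold change -1.32), 3 of 3 of oligodendrocyte precursors (-1.29) and 6 of 10 of astrocytes (-0.46). So were 5 of 7 of endothelial cells (-1.05) and 3 of 3 of pericytes (-1.09). Of the neuron markers 3 of 10 were higher and 1 lower (-0.11). The part of these markers in the result was not tested. Without mouse 192 the calls of Arntl and Nr1d2 were lost, leaving 1, where 25.9% of all genes were called. Over 12 alternatives Clock was called in 12, Arntl in 11 and Nr1d2 in 7 (adjusted p up to 0.107 from edgeR, the calls lost without a filter and without mouse 192, 209, 210 or 277).

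The input itself differed from whole tissue in 6 members, all higher in input, where 22.4% of all 13648 genes were called (12.5% higher and 9.85% lower). Arntl had the largest log2 fold change, 0.58 (adjusted p = 0.00273 from edgeR), followed by Per3 (0.45, adjusted p = 0.00702), Nr1d1 (0.37, 0.0112), Per1 (0.36, 0.0168), Per2 (0.35, 0.0306) and Cry2 (0.29, 0.00988). CPM ranges were apart for Arntl, Per1 and Cry2, against 18.6% of genes. With all groups in one fit 3 of the members and 21.7% of all genes were called, and without mouse 209 it was 2 members and 7.64% of all genes. The same comparison gave 7 of 7 endothelial markers lower in input (median log2 fold change -1.27), with 7 of 8 of oligodendrocytes (-0.39), 2 of 3 of pericytes (-0.83) and 3 of 10 of astrocytes (-0.13). Higher in input were 2 of 3 choroid plexus markers (median 1.07) and 4 of 10 neuron markers, of which 2 others were lower (0.06), and their part in the result was not tested.

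Between the negative fraction and input of the Cx3cr1 mice, Dbp was higher in the negative fraction (0.23, SE 0.04, adjusted p = 0.00100 from edgeR). It had 71.5, 73.4 and 78.1 CPM in input and 79.7, 86.1 and 96.7 CPM in the negative fraction, without overlap, where 3.79% of all genes did not overlap. Clock was lower by a log2 fold change of -0.35 (SE 0.05, adjusted p = 0.000120), Per2 by -0.21 (adjusted p = 0.00628), Per3 by -0.19 (0.00815) and Per1 by -0.10 (0.0453), and all 4 were lower in 6 of 6 mice. These 5 calls among 10 compare with 37.2% of all 13748 genes (17.7% higher and 19.5% lower). There were 2 without the block, where 6.11% of all genes were called, and 0 with all groups in one fit, where edgeR called 275 genes in all, and the call of Per1 held under only 3 of 13 alternatives. Of the markers, 5 of 10 of neurons were higher and 2 lower (median 0.08) and 2 of 3 of oligodendrocyte precursors lower (-0.27), and their part in the result was not tested.

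**Figure D3:**
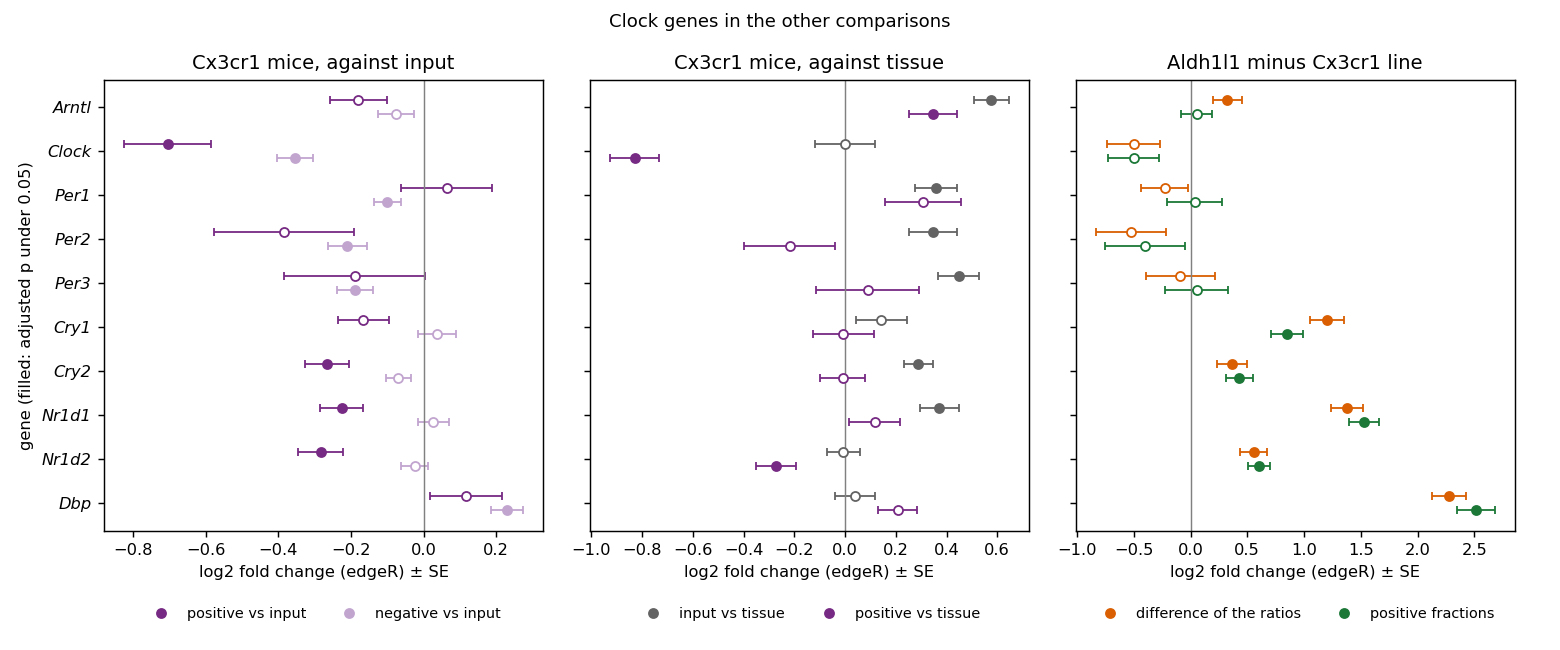
Log2 fold change from edgeR (x axis, with bars of 1 SE) of each clock gene (y axis) in the Cx3cr1 mice against input (left) and against whole tissue (middle), and between the lines (right), with filled points at an adjusted p under 0.05. Clock lies at -0.70 and -0.83 in the positive fraction against input and tissue, and Dbp, at 2.28 and 2.51, lies farthest to the right between the lines.

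The within-mouse ratios of positive to negative fraction were then compared between the lines, so that each ratio was taken within a mouse. No mouse is in both lines. Line, mouse, time of killing and interval after tamoxifen therefore cannot be told apart in the difference of these ratios either. The difference, Aldh1l1 minus Cx3cr1, was above 0 for 6 members and below 0 for none at an adjusted p under 0.05. Of all 13983 genes, 58.0% differed (27.1% above 0 and 30.9% below), so the share of members that differed was close to that of all genes. The median difference was 0.35 over the members and -0.11 over all genes tested. By the same test, 10 of 10 astrocyte markers (median difference 3.53) and 3 of 3 choroid plexus markers (3.21) were above 0, and 10 of 10 of microglia (-5.93), 10 of 10 of neurons (-1.52) and 7 of 8 of oligodendrocytes (-2.15) below, and their part in the result was not tested.

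Dbp differed most. Its log2 ratios were 2.13, 2.33 and 2.36 in the Aldh1l1 mice and between -0.43 and 0.12 in the 6 Cx3cr1 mice, a difference of 2.28 (SE 0.15, adjusted p = 1.42e-07 from edgeR). For Nr1d1 the ratios were 1.20, 1.43 and 1.07 against -0.43 to 0.05, a difference of 1.38 (SE 0.14, adjusted p = 6.82e-06). For Cry1 they were 0.87, 1.29 and 1.13 against -0.45 to -0.00, a difference of 1.20 (SE 0.15, adjusted p = 2.63e-05). These 3 genes were called under each of the 16 alternatives. The ranges of the ratios were apart between the lines for them, as they were for Nr1d2, Cry2 and Arntl, and the share of all genes with such ranges was not computed. Nr1d2 differed by 0.56 (SE 0.12, adjusted p = 0.00159), Cry2 by 0.37 (SE 0.13, adjusted p = 0.0331) and Arntl by 0.32 (SE 0.13, adjusted p = 0.0442). These smaller differences did not hold with total counts only, at 0.28 for Nr1d2 (adjusted p = 0.0682), 0.09 for Cry2 and 0.05 for Arntl. Over the 16 alternatives Nr1d2 was called in 15, Cry2 in 12 (adjusted p up to 0.591 from edgeR) and Arntl in 9 (up to 0.749), and without any 1 of the 3 Aldh1l1 mice Arntl was not called. Differences of Clock (-0.50, SE 0.23, adjusted p = 0.0827), Per2 (-0.53, SE 0.31, adjusted p = 0.161), Per1 (-0.23, adjusted p = 0.365) and Per3 (-0.09, adjusted p = 0.808) did not pass the test. With total counts only, where the share of differing genes above 0 moved from 46.7% to 31.6%, Clock (-0.78), Per2 (-0.80) and Per1 (-0.50) were called below 0.

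**Figure D4:**
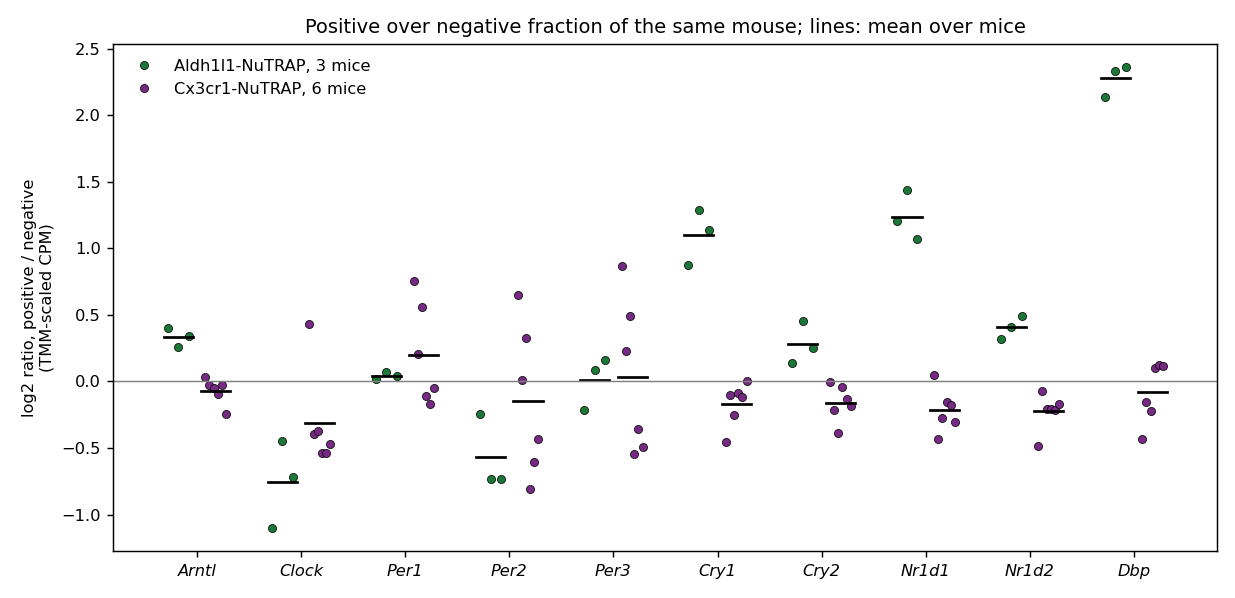
Log2 ratio of positive to negative fraction within each mouse after TMM scaling (y axis) for the 10 clock genes (x axis), with 3 Aldh1l1-NuTRAP and 6 Cx3cr1-NuTRAP mice as points and a bar at the mean of each line. The Aldh1l1 mice lie at 2.13 to 2.36 for Dbp, 1.07 to 1.43 for Nr1d1 and 0.87 to 1.29 for Cry1. For these genes, and for Nr1d2, Cry2 and Arntl, they lie above all Cx3cr1 mice. The Cx3cr1 mice lie on both sides of 0 for Per1, Per2, Per3 and Dbp.

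Compared directly, 5 members were higher in the Aldh1l1 than in the Cx3cr1 positive fractions and 0 lower, where 63.7% of 13676 genes were called (30.6% higher and 33.1% lower). They were Dbp (2.51, adjusted p = 3.52e-07 from edgeR), Nr1d1 (1.53, 2.89e-06), Cry1 (0.85, 0.000343), Nr1d2 (0.60, 0.000346) and Cry2 (0.43, 0.00895). With total counts only the median of all genes moved by -0.31, Nr1d2 was at 0.29 (adjusted p = 0.0444 from edgeR) and Cry2 at 0.12 without a call (0.456). Of the markers, 10 of 10 of astrocytes (median log2 fold change 3.25) and 3 of 3 of choroid plexus (2.38) were higher and 10 of 10 of neurons (-1.47) and of microglia (-5.68) lower, and their part in the result was not tested. CPM ranges were apart for 5 members, Clock, Cry1, Nr1d1, Nr1d2 and Dbp, against 60.4% of genes. In this comparison, too, line, mouse, time of killing and interval after tamoxifen cannot be told apart. Between the negative fractions of the lines, 0 of the 10 members were called by edgeR, against 0.25% of all 13613 genes (0.125% in each direction). At an unadjusted p under 0.05 there were 2 members and 13.4% of all genes, and DESeq2 called 0 members and 3.8% of all genes. CPM ranges of the negative fractions were apart for Cry1 alone, against 7.75% of genes. Without mouse 290, Per2 was called higher in the Aldh1l1 negative fractions (0.59, adjusted p = 0.0428 from edgeR), where 0.951% of all genes were called.

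Levels of different members were compared only per length. In the Aldh1l1 positive fractions Dbp had 123 ± 25.1 CPM per kb of exon (SD, n = 3) and Nr1d1 had 70.3 ± 14.6. Nr1d2 (25.9 ± 3.21), Cry2 (24.2 ± 3.91), Per1 (19.0 ± 5.53) and Cry1 (12.6 ± 3.08) followed, and Arntl, Per3, Per2 and Clock had 2.01 to 4.08 CPM per kb. Dbp and Nr1d1 were thus well apart from the rest on this scale, while Nr1d2 and Cry2 differed by less than their SDs. In the Cx3cr1 positive fractions Nr1d1 (30.3 ± 3.47, SD, n = 6), Dbp (27.0 ± 5.11), Per1 (22.8 ± 5.38), Cry2 (22.3 ± 2.07) and Nr1d2 (21.2 ± 1.34) came first. Of these, each differed from the next in this order by less than the larger of the 2 SDs, while Nr1d1 and Nr1d2 were farther apart than that. Cry1 had 8.67 ± 0.751 CPM per kb, and Arntl, Per2, Per3 and Clock had 3.52 to 4.87. Clock was the lowest member per kb in both positive fractions, and the members of lowest level per kb, Arntl, Per2, Per3 and Clock, were the same 4 in all 6 groups.

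Ordered by mean CPM over the 6 groups, most neighbouring groups overlapped for each gene. The exceptions were Dbp and Nr1d1, for which the Aldh1l1 positive fractions came first and did not overlap the Aldh1l1 negative fractions, which came second. For Clock and Per2 the Aldh1l1 positive fractions came last, below the ranges of the Cx3cr1 positive fractions and of whole tissue, respectively. For Nr1d2 the Cx3cr1 positive fractions came last, below the Cx3cr1 negative fractions. For Arntl, Per1, Per3, Cry1 and Cry2 no neighbouring pair of groups was apart. Of all genes, 63.0% did not overlap between the Aldh1l1 fractions, 60.4% between the positive fractions of the lines and 13.1% between the Cx3cr1 positive and negative fractions. For the Aldh1l1 positive fractions against whole tissue the share was not computed.

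Fold changes in the fractions also varied with transcript length. Between the Aldh1l1 positive and negative fractions the median log2 ratio was 0.37, 0.14, -0.03 and -0.26 from the shortest to the longest of the 4 classes of exonic length, for the 94.0% of genes with a length. Against input, the Cx3cr1 positive fraction went from 0.20 to -0.21, and the negative fraction from 0.15 to -0.16. Dbp (2993 bases), Nr1d1 (3077) and Cry1 (3340) fell in the second class, Nr1d2 (5409), Per1 (5631), Per2 (5856) and Cry2 (6320) in the third, and Arntl (7523), Per3 (9608) and Clock (13727) in the longest. Within its own class, Dbp was at percentile 94.2 of the Aldh1l1 ratios, Nr1d1 at 83.9, Cry1 at 81.6, Clock at 28.9 and Per2 at 28.5. In the Cx3cr1 positive fraction against input, Clock was at percentile 10.5 of its class, and in the negative fraction against input at 12.5. The longest class starts at 6912 bases and has no upper bound, so a rank within it does not hold length constant for Clock. The part of length in the results was not tested further.

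**Figure D5:**
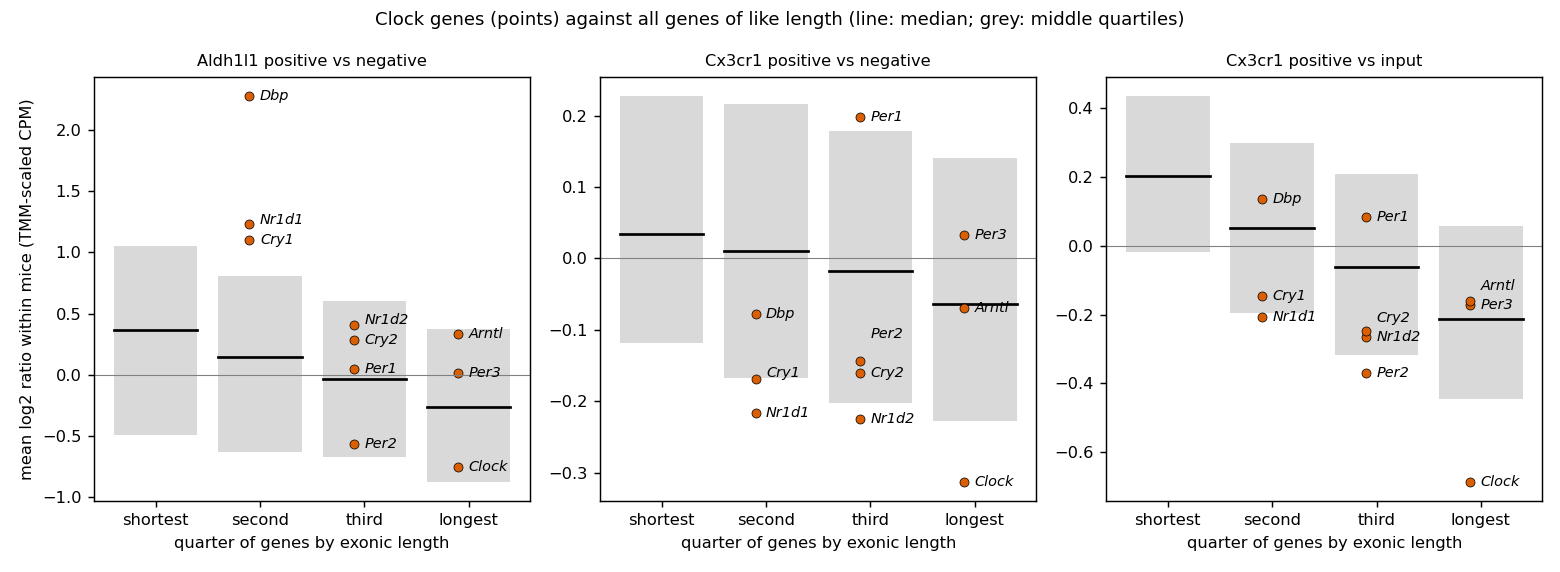
Mean log2 ratio within mice (y axis) of each clock gene (points) by class of exonic length (x axis) in 3 comparisons, with the median (line) and the middle quartiles (grey) of all genes in each class. Dbp, Nr1d1 and Cry1 lie above the upper quartile of their class in the Aldh1l1 positive against negative fractions, and Clock lies below the lower quartile of the longest class in the Cx3cr1 positive fraction against input.

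Across all 29 libraries, the genes whose log2 CPM was most like that of a member were listed by Pearson's r over 14108 genes, as a description. For Dbp they were Sdhc, Rhoc and Manbal (r = 0.98 each), for Nr1d1 Gnao1 (0.96), Mapk4 (0.95) and Ccnd2 (0.95), and for Nr1d2 Fam108b (0.94), 2810407C02Rik (0.93) and Ssr3 (0.93). For Clock they were Tulp4, Trim23 and Dopey2 (0.97 each), and for Arntl Anks6 (0.82), Ggcx (0.81) and Plekhm1 (0.78). For Per1 they were Mdm2 (0.86), Khsrp (0.86) and Mink1 (0.84), for Per2 Ptprs (0.90), Ccnt2 (0.90) and Btaf1 (0.89), and for Per3 Iqce (0.89), Pfkfb2 (0.88) and Map4k5 (0.85). For Cry1 they were A2m (0.92), Traf1 (0.92) and Pdk2 (0.91), and for Cry2 Tef (0.91), 2310044G17Rik (0.90) and Fam168b (0.90). Tef, which encodes a factor of the same family as DBP, was the only one of these genes that is also on the list of other clock genes. Among the members, Nr1d1 and Dbp (0.88), Cry2 and Nr1d1 (0.87) and Cry1 and Nr1d1 (0.81) went together, and Per1 and Per3 had r = 0.79. The points share their libraries, lines and depth, and several fractions come from one mouse.

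When the mean of its group was subtracted from each library, what remained was the variation between libraries within groups. On this measure Per1 and Per2 had r = 0.90 (0.86 without mouse 290), at rank 29 of 14108 genes for Per1 and 27 for Per2. Per1 and Per3 had r = 0.78 and Per2 and Per3 also 0.78. Dbp ran against them, at -0.83 with Per2, -0.81 with Per1 and, less strongly, -0.55 with Per3. It also ran against the activators, at -0.79 with Clock and -0.85 with Arntl. For Arntl, Dbp was the gene of lowest Pearson's r among all 14108 (by Spearman's rho, at -0.80, it was not). Arntl itself went with Per1 and Per2 (0.76 each), and Nr1d1, a target of the activator like Dbp, had r = -0.21 with Dbp. Several libraries come from 1 mouse, and libraries differed in the balance of long and short genes, whose part was not tested. Without mouse 290 the r of Dbp and Arntl was -0.72. The genes most like each member by this measure were Phf3, Mllt1 and Rlf for Arntl (0.83, 0.83 and 0.82), Spag9, Akap11 and Ptch1 for Clock (0.97, 0.96 and 0.96), and Pitpnm2, Unc13a and Shank3 for Per1 (0.94 each). They were Zc3h3, Mbd1 and Mlxip for Per2 (0.93 each), Clip1, Uggt2 and Pisd-ps2 for Per3 (0.93, 0.93 and 0.92), and Kit, Tlx3 and Kitl for Cry1 (0.79, 0.78 and 0.77). They were Ppap2b, Ctnnd2 and Ttc7b for Cry2 (0.89, 0.88 and 0.87), Wipf3, Dpy19l3 and Fam163b for Nr1d1 (0.88, 0.87 and 0.87), Caln1, Fam108b and 1190002N15Rik for Nr1d2 (0.75, 0.74 and 0.72) and Ier2, Snrpb and Adh5 for Dbp (0.89 each). By Pearson's r, no member was among the 3 genes most like another member on either measure. In the Aldh1l1 line mouse 290 stood apart from the other mice on these genes, with Per2 at 16.6 CPM and Dbp at 137 CPM in its negative fraction. The SD of log2 CPM over the Aldh1l1 negative fractions was 0.78 for Per2 and 0.45 for Dbp with this mouse, and 0.05 and 0.01 without it. Mouse 290 also had the smallest libraries of the line and the lowest difference between long and short genes. This was -0.55 in the positive and -0.42 in the negative fraction, each relative to the mean of its own group. The part of depth and length in the result was not tested.

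The other clock genes were taken from a list of 28 regulators and outputs. Between the Aldh1l1 positive and negative fractions, 26 of them were tested, of which 10 were higher and 7 lower, where 70.8% of all genes were called. Among the largest changes were those of the nuclear receptor gene Rorb (1.65, adjusted p = 0.00766 from edgeR), the D-box repressor Nfil3 (-1.45, 2.13e-05), the replication fork factor Tipin (1.17, 4.02e-05), the phosphatase Noct, listed as Ccrn4l (-1.14, 6.64e-06), and the deubiquitinase Usp2 (0.88, 6.50e-05). Rorb was at 872 CPM in the positive fraction of mouse 290 and at 139 and 146 CPM in the other 2, with negative fractions at 69.8 to 176 CPM, so the ranges overlapped, and the log2 ratios within mice were 1.02 to 2.71. Nfil3, whose product binds the same D-box as DBP, thus lay on the other side of 0 from Dbp in these fractions. In the Cx3cr1 line, 0 of 27 were higher in the positive than in the negative fraction and 5 lower, where 9.28% and 7.98% of all genes were. Among these were Bhlhe40 (-0.44, adjusted p = 0.0234 from edgeR), a repressor of E-box genes, Npas2 (-0.38, 0.0295), a paralog of Clock, Hlf (-0.37, 0.0410), a factor of the DBP family, and the kinase gene Gsk3b (-0.31, 0.0477).

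Against input, 1 of 27 was higher in the Cx3cr1 positive fraction, the kinase gene Csnk1e (0.30, adjusted p = 0.00501 from edgeR), and 10 were lower, where 19.0% and 23.9% of all genes were. The largest of these were Fbxl21 (-0.69, adjusted p = 0.0239), Bhlhe40 (-0.56, 0.00232), Gsk3b (-0.53, 0.000473), Npas2 (-0.46, 0.00218), Csnk1a1 (-0.46, 0.000839) and Hlf (-0.43, 0.00325). Against whole tissue, 3 were higher and 7 lower (19.9% and 22.7% of all genes), with the largest changes in Fbxl21 (-1.12, adjusted p = 0.0119 from edgeR), Rora (-1.05, 0.00122), Usp2 (0.75, 0.00220), Gsk3b (-0.61, 0.00810), Csnk1a1 (-0.49, 0.00307) and Csnk1e (0.48, 0.00492). In the negative fraction against input 3 were higher and 6 lower (17.7% and 19.5% of all genes), and in input against tissue 6 were higher and 1, Rora (-0.53, adjusted p = 0.0331), lower (12.5% and 9.85% of all genes). The ratio of positive to negative fraction differed between the lines for 16 of 27, with 10 above 0 and 6 below, where 58.0% of all genes differed. Rorb (1.73, adjusted p = 0.000624 from edgeR), Arntl2 (-1.56, 0.0414), Nfil3 (-1.50, 1.39e-05), Tipin (1.13, 0.000926) and Hlf (1.03, 0.000483) were among those with the largest differences. Between the positive fractions 9 of 27 were higher in the Aldh1l1 line and 6 lower (30.6% and 33.1% of all genes).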

How the data were processed

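Polyadenylated RNA of TRAP fractions and whole tissue was sequenced in strand-specific libraries. In Strand NGS the authors trimmed the reads, aligned them directionally to mm10 and summed them over RefSeq genes, and the deposited raw values are expected counts. As 82.8% of the nonzero values were not whole, counts were rounded. The deposited log2 values, which the authors normalized with DESeq, were not used. Genes entered a test when all libraries of any group compared exceeded 20 counts. They were tested with edgeR 4.0.16 (R 4.3.3, quasi-likelihood, two-sided, TMM), with the groups compared only and Benjamini-Hochberg adjustment. DESeq2 1.42.0, other scalings, filters and fits, and each mouse left out in turn, were alternatives. Levels are CPM, counts scaled to the library total, from which within-mouse log2 ratios were computed with a prior count of 2 after TMM scaling. Exonic lengths are unions of GENCODE exons on GRCm38, the assembly also called mm10. Tests were checked on simulated counts.

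The labels give the animal number, so libraries with the same number are fractions of 1 mouse, and the mouse entered fits within a line as a replicate block. The correlation of residuals within a mouse exceeded 0.1 in 3 of 3 pairs of Aldh1l1 fractions, 5 of 6 pairs of Cx3cr1 negative fraction and input, 3 of 6 pairs when the positive fraction was set against either of these, and 0 of 5 pairs with tissue. The test of whether within-mouse ratios differed by line kept the mouse as block. Direct comparisons of 1 fraction between the lines share no mouse and had no block. All 10 genes are named in the main comparisons and, in the others, the members called. Of the other clock genes up to 6 with the largest called change are named, except some that are not reported here, and for likeness the 3 genes of highest r. The members and lists were chosen with earlier results of these data known. The number of counts limits precision, and no library had fewer than 107 counts for a member.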

Additional observations from a re-analysis of the deposited data

Results flagged for a closer look

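Within a group, 2 single libraries stood far from the others by Dixon's criterion, among 40 combinations of a member and a group of 5 or 6 libraries, where chance gives about 1 in 20. Both were the Cx3cr1 negative fraction of mouse 155. Clock had 44.7 CPM there, with 62.3 to 72.2 CPM in the 5 other mice, and Nr1d1 had 82.5 CPM, with 113 to 123 CPM in the others. In the same library the difference between long and short genes, relative to the mean of its group, was -0.45, the lowest of the Cx3cr1 negative fractions. Its part in these values was not tested.

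The ratio of positive to negative fraction differed between the lines, by a test of the difference itself in edgeR, for 6 members, where 58.0% of all genes differed. On the log2 scale, Aldh1l1 minus Cx3cr1, the differences were 2.28 for Dbp, 1.38 for Nr1d1, 1.20 for Cry1, 0.56 for Nr1d2, 0.37 for Cry2 and 0.32 for Arntl. Of 16 alternatives, Nr1d2 was called in 15, Cry2 in 12 and Arntl in 9. With total counts only, Nr1d2, Cry2 and Arntl were not called. Among the other clock genes with the largest differences were Rorb (1.73), Arntl2 (-1.56), Nfil3 (-1.50), Tipin (1.13) and Hlf (1.03). For Rorb, mouse 290 had 872 CPM in the positive fraction and the other Aldh1l1 mice 139 and 146 CPM. For Arntl2 the mean level was at most a few CPM in both positive fractions, 1.07 in the Aldh1l1 and 3.48 in the Cx3cr1 mice.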

How the results depend on the processing

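Of the values of members in a comparison under the alternatives, 678 kept their direction and side of the threshold, 55 lost a call, 21 gained one and 14 changed sign. With the mouse as replicate block, 6 members were called between the Aldh1l1 fractions (70.8% of all genes) and 5 between the Cx3cr1 negative fraction and input (37.2%). Without the block there were 3 (51.6% of all genes) and 2 (6.11%), so the calls over all genes fell as well. The block also took the count between the Cx3cr1 positive and negative fractions from 2 to 0 (from 24.3% to 17.3% of all genes), and moved no other count of members by over 1.5 times. In that last comparison 3 members were called with all groups in one fit and the block (30.6% of all genes), 1 with total counts only (18.7%) and 1 with DESeq2 (23.2%). When 1 mouse was left out there were 0 to 3 (8.83% to 29% of all genes), the 3 being without mouse 155, where the share of all genes was highest. With all groups in one fit, the counts were 0 between the Cx3cr1 negative fraction and input (2% of all genes) and 3 between input and tissue (21.7%). When 1 mouse was left out, the counts ran from 2 (without mouse 192) to 5 for the positive fraction against input, where 30.9% to 47.7% of all genes were called. Against tissue they ran from 1 (without mouse 192) to 4 (25.9% to 45.2% of all genes). For input against tissue they ran from 2 (without mouse 209) to 7 (7.64% to 35.1%). Between the negative fractions they ran from 0 to 1 (without mouse 290), against 0% to 0.951% of all genes.

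The sign changes were in genes without a call. Between the Aldh1l1 fractions (log2 fold change) they were Per1 without the block (0.0025), without a filter (0.031) and with 1 mouse left out (-0.026 to 0.0035), Per3 without a filter (0.0050) and with 1 mouse left out (-0.10 to 0.047), and, with total counts only, Arntl (-0.064) and Cry2 (-0.11). Between the Cx3cr1 positive and negative fractions, Per3 was at -0.011 with total counts only and at -0.15 to 0.13 with 1 mouse left out. With 1 mouse left out, Per1 in the positive fraction against input was at -0.036 to 0.15 and the difference between lines of Per3 at -0.17 to 0.087.

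Counts over all genes moved by over 1.5 times in 5 comparisons. The 2378 genes called between the Cx3cr1 positive and negative fractions became 4217 with all groups in one fit and 1222 (without mouse 192) to 4036 (without mouse 155) with 1 mouse left out. The 5754 of positive fraction against tissue became 3527 without mouse 192, 3766 without mouse 277 and up to 6343 without mouse 210, and the 5115 of negative fraction against input became 840 without the block and 275 with all groups in one fit. The 3052 of input against tissue became 1044 (without mouse 209) to 4892 (without mouse 210), and the 34 between negative fractions 517 with DESeq2, 14 without a filter and 0 (without mouse 293) to 133 (without mouse 290). With total counts only, the share of calls above 0 went from 48.0% to 31.4% between the positive fractions and from 50.0% to 28.6% between the negative ones. The causes were not tested, except that fewer mice and pooled spread are part of the alternatives themselves. With Spearman's in place of Pearson's correlation, 19 of the 60 genes named as most like a member were shared. The correlation of Dbp with Per1 and Per2 in deviations from group means, at -0.81 and -0.83, was -0.68 and -0.67 without mouse 290, an alternative chosen after seeing the data. Counts of at least 107 in every library mean that depth did not limit the detection of any member.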
